A study of Mus musculus with 12 samples.

Results

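The response of the mouse liver to a high-fat diet was followed over both Sirt1 genotypes of the series. All 6 arrays from mice on the high-fat diet were set against all 6 arrays from mice on the low-fat diet, which together are the 12 arrays of the series, with genotype as a factor. The mice were male C57BL/6 animals that were either SIRT1+/+ (WT) or SIRT1+/- (Het), and each of the 4 combinations of genotype and diet held 3 mice with 1 array per mouse. Either diet was given for 34 weeks, and the ages of the mice, the composition of the diets and the way the Sirt1 allele was made are not given in the sources used here. Total liver RNA was labelled with Cy3 and hybridised to 1-colour Agilent arrays, on which the brightness of a 60-base probe reports the abundance of a transcript. Arrays were put into the diet groups by their labels alone, and the genes of main interest were those that moved the same way in WT and in Het livers.

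When dietary fat exceeds what the liver burns or exports, hepatocytes store it as triglyceride in lipid droplets, which are coated by proteins of the perilipin and CIDE families. Prolonged storage is known to be accompanied by the recruitment of macrophages, by deposition of collagen from stellate cells, and by changes in sterol synthesis, detoxification and hormone-dependent gene expression. SIRT1 is an NAD-dependent deacetylase that acts on several regulators of these programmes.

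Levels are log2 values of the processed signal relative to the 75th percentile of the same array, and differences are high fat minus low fat, averaged with equal weight over both genotypes, with the standard error (SE) of the fit. A gene was called where limma's moderated test gave an adjusted p under 0.05 over all 16995 genes tested. Spots well above background made up 58.0% to 71.6% per array, and the precision is limited by the number of arrays. The labels do not say that mice came from separate cages or litters, so p-values measure the spread between these mice. The 6 arrays of each diet shared a scan day, which differed between the diets, and no slide held both diets, so that diet and scan day cannot be told apart in any value given here. The Agilent spike-in controls are added at set amounts. On the scaled log2 levels their means were 1.64 (high fat) and 1.59 (low fat). This difference of 0.05 had p = 0.715 in an exact two-sided permutation test within genotype. Single controls differed by -0.31 (E1A_r60_3) to 0.32 (E1A_r60_1) on that scale. Between single arrays the scaled mean of the controls ran from 1.31 to 1.75 on high fat and from 0.99 to 1.96 on low fat. Before scaling the means were 11.94 (high fat) and 12.29 (low fat). This difference of -0.35 had p = 0.06 in an exact two-sided permutation test within genotype. Each unscaled control was lower on the high-fat arrays, with differences of -0.71 (E1A_r60_3) to -0.09 (E1A_r60_1). Probes of called higher genes had a median GC content of 45.0%, those of called lower genes 38.3% and all probes used 43.3%, and with a trend in GC and brightness removed 5026 genes were called, of which 4267 were among the 5108 called without that step. The first principal component, with 40.8% of the variance, separated the diets, with scores of -57.0 to -20.6 for high fat against 22.5 to 41.1 for low fat. Of 18 listed hepatocyte markers 16 were measured, which by the filter on dim probes means well above background on every array of some group. Their summed level, in multiples of the 75th percentile, was 2860 to 4045 on the high-fat and 2629 to 4018 on the low-fat arrays.

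Over both genotypes 5108 genes were called, 30.1% of those tested. Of these, 2288 were higher on the high-fat diet (13.5%) and 2820 were lower (16.6%). At least 2-fold differences were found in 444 genes called higher (2.61%) and 394 called lower (2.32%), and at least 4-fold differences in 62 and 28 genes. The median difference of all genes tested was -0.03, so that the list medians given in the following text stand against a value close to 0. The share of calls that were higher was 44.8%, and became 60.8% when arrays were scaled to their median in place of the 75th percentile.

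The differences in WT and in Het livers had the same sign in 5094 of the 5108 called genes, against 77.8% of all genes tested. That high share follows in part from the test itself, which averages the differences of both genotypes. The 3 high-fat and 3 low-fat arrays did not overlap, in the same direction, in WT and in Het for 2729 called genes. The same separation was found in 16.8% of all genes tested. In 1025 genes all 6 high-fat arrays lay above all 6 low-fat arrays (6.03% of those tested), and in 1236 genes all 6 lay below (7.27%). Diet in WT alone called 958 genes (5.64%) and diet in Het alone 2673 (15.7%), and 680 genes (4.0%) were called in both with the same sign, 354 higher (2.08%) and 326 lower (1.92%), which are 71.0% of the WT calls and 25.4% of the Het calls. Leaving out 1 array moved these counts more than that over both genotypes. The WT count was between 181 and 331 when WT low-fat replicate 1 or 3 or any WT high-fat array was left out, and 630 without Het low-fat replicate 2. The Het count was 844 without Het high-fat replicate 1 and between 1068 and 1603 without Het low-fat replicate 1, 2 or 3. The shared count fell to between 131 and 246 when any WT array on high fat, or WT low-fat replicate 1 or 3, was omitted, and to between 352 and 432 without Het high-fat replicate 1 or Het low-fat replicate 1 or 2. Another 2296 genes were called over both genotypes and in neither alone. Across all genes the WT and Het differences, which share no array, had a Pearson correlation of 0.73 and a Spearman correlation of 0.71, given as a description because genes are not independent and all differences share the 2 scan days.

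**Figure D1:**
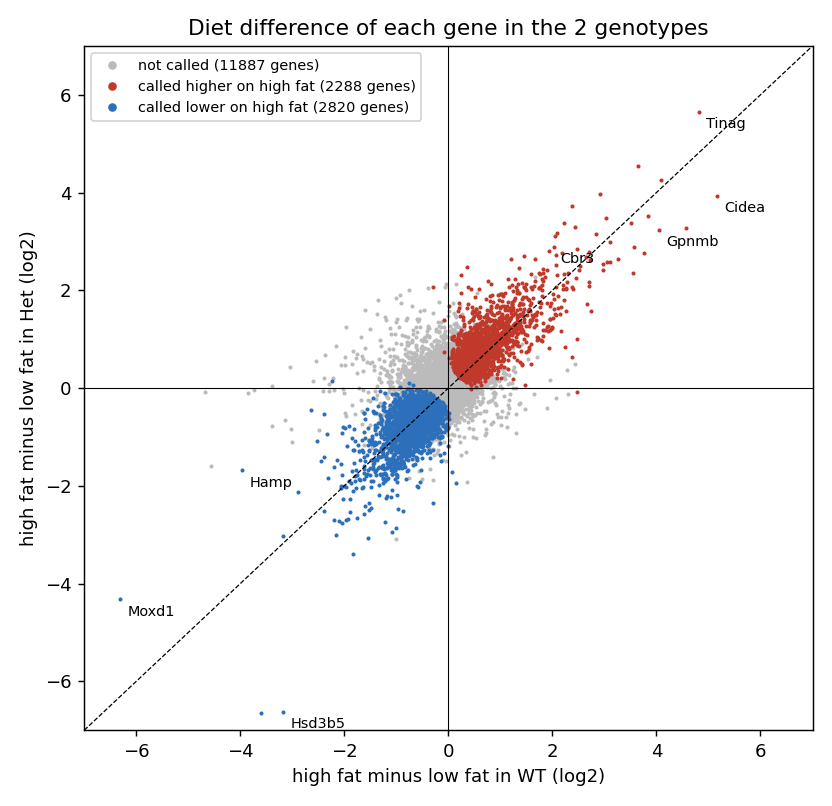
Diet difference (high fat minus low fat, log2) of each of the 16995 genes tested, WT on the horizontal and Het on the vertical axis, with called genes in colour and a dashed line where both are equal. Called genes lie almost wholly in the 2 quadrants of equal sign, with Tinag and Cidea farthest up and Moxd1 and Hsd3b5 farthest down.

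The genotype by diet interaction was called by limma for 0 genes (0.00%), with 831 genes at an unadjusted p under 0.05 (4.89%). Among the called genes the interaction with the lowest p was that of Cish, an inhibitor of cytokine receptor signalling, which fell by 1.08 in WT and by 2.95 in Het (adjusted p of the interaction 0.94). Akap6, an anchoring protein of protein kinase A, differed by 0.31 in WT and by 1.32 in Het (adjusted p of the interaction 0.94). The difference was the larger in Het for 66.7% of the called genes, a share that ran from 55.6% to 73.1% when single arrays were left out. The median size of a called difference was 0.53 in WT and 0.64 in Het, and no test of this contrast was passed by any single gene.

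Averaging over both genotypes brought calls to genes that passed in neither alone. Thrb, the main thyroid hormone receptor of the liver, had levels of 0.22, 0.43 and 0.71 (lowest, median, highest) on the high-fat and 0.79, 0.93 and 1.31 on the low-fat arrays. These ranges did not overlap, and Thrb fell by 0.57 ± 0.12 on the probe used (adjusted p = 0.00588), with adjusted p-values of 0.0507 in WT and 0.0595 in Het. Its other probes differed by -0.08 ± 0.16 (adjusted p = 0.73) and -0.29 ± 0.10 (adjusted p = 0.0488) in the same limma test. Tug1, a long non-coding RNA, likewise fell by 0.41 ± 0.08 (adjusted p = 0.00588), and Iqgap3, a scaffold protein of dividing cells, rose by 1.30 ± 0.26 (adjusted p = 0.00561).

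Probes that held an alternating run of 8 or more G and T bases were left out of every gene comparison, which removed 103 probes that passed the filter on dim signals. They are shown here because their readout differed from that of other probes in the direction of the diet contrast. Their median difference was -0.56, from -4.07 to 1.22, and 53 of the 103 would have been called lower and 3 higher, whereas the 889 probes with runs of 6 or 7 such bases had a median of -0.03. The 30 bases around the run of 3 probes with differences at the lower end follow, 5′ to 3′ as the array design gives the probe, with the run in capitals. The run of the Itgb3 and TC1440579 probes is 13 bases long and that of AK040677 10.
AK040677: tgttagtctgGTGTGTGTGTattttatagg
TC1440579: ctttttgtgttttgGTGTGTGTGTGTGgtg
Itgb3: ggacaattTGTGTGTGTGTGTatgggtggg
The AK040677 probe lies at chr15:11963071-11963130 in mm7, the mouse build that the file headers give, and differed by -3.82 ± 0.69 (adjusted p = 0.00342). That of TC1440579, at chr15:100382267-100382326, differed by -3.81 ± 0.70, and that of Itgb3, at chr11:104776217-104776287, by -3.60 ± 0.61. Each was well above background on all 12 arrays. Whether these differences belong to the diet or to the scan day cannot be told apart.

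The largest increases over both genotypes included proteins of lipid droplets, of macrophages and of epithelial cells. Tinag, a basement membrane protein (mm7 chr9:76989211-76989270), was measured at -3.57, -1.99 and -0.62 (lowest, median, highest) on the high-fat and at -7.77, -7.19 and -6.29 on the low-fat arrays. The groups did not overlap, but only 1 of the 6 low-fat arrays was well above background, so the fitted rise of 5.23 ± 0.48 (adjusted p = 0.000305) rests in part on signals near the background. Ly6d, a surface antigen of the Ly6 family (chr15:74842671-74842730), was well above background on all 12 arrays, with 2.58, 3.61 and 5.13 on the high-fat and -1.32, -0.04 and 0.57 on the low-fat diet. It rose by 4.09 ± 0.43, or 17.1-fold (adjusted p = 0.000473), and every high-fat array exceeded every low-fat array.

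Gpnmb, a glycoprotein of lipid-laden macrophages (chr6:49016437-49016496), stood at -2.10, -1.22 and -0.47 on the high-fat and at -6.07, -5.01 and -3.06 on the low-fat arrays, 3 of which were well above background. It rose by 3.64 ± 0.43 (adjusted p = 0.000616), by 4.04 in WT and 3.23 in Het. The metalloelastase gene Mmp12, another macrophage product, rose by 3.27 ± 0.34 (adjusted p = 0.000443). Other genes of this order were Gipc2 (4.17 ± 0.50), the actin bundler Pls1 (3.91 ± 0.60), the orphan receptor gene Gprc5b (3.67 ± 0.50), Ttc39a (3.45 ± 0.40), the PDZ protein gene Sdcbp2 (3.44 ± 0.50) and the ephrin receptor gene Ephb2 (3.23 ± 0.52). In all of these the 6 high-fat arrays lay above the 6 low-fat arrays, a separation within each genotype that the rule for naming them required.

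The increases of lowest p were those of genes with little spread between mice. Bex4, a small protein of the Bex family, had levels of -1.25, -0.52 and -0.10 on the high-fat and of -3.63, -3.40 and -2.90 on the low-fat arrays. It rose by 2.75 ± 0.19 (adjusted p = 0.000215), by 2.97 in WT and 2.53 in Het. Anxa2, a calcium-dependent membrane-binding protein, was at 2.88 to 4.14 on the high-fat and at 0.79 to 1.54 on the low-fat arrays, a rise of 2.23 ± 0.19 (adjusted p = 0.00029), and its other probe rose by 2.40 ± 0.18. Tpm1, an actin-binding tropomyosin, rose by 1.21 ± 0.10 (adjusted p = 0.00029), with 1.18 in WT and 1.24 in Het.

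Among the largest decreases were enzymes and transporters that mark the male mouse liver. Moxd1, a monooxygenase-like gene (chr10:24053329-24053387), was well above background on 0 of 6 high-fat and 5 of 6 low-fat arrays. It was at least 8.81-fold lower on the high-fat diet (adjusted p = 0.000491), a bound for which each dim array counts at the lowest signal that was well above background there, or at the probe's own where that is higher. Hsd3b5, a steroid reductase (chr3:98414360-98414419), was at -4.18, -0.17 and 2.16 on the high-fat and at 3.45, 4.33 and 5.39 on the low-fat arrays. The groups did not overlap, the 3 lowest values were those of the Het high-fat arrays, and the gene fell by 4.89 ± 0.58 (adjusted p = 0.000622), by 3.17 in WT and 6.62 in Het. The rule for naming the largest decreases required the diets to be apart within each genotype. The near-identical Hsd3b4 fell by 5.12 ± 0.47 (adjusted p = 0.000305), and the probes of these paralogs may share signal.

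Hamp, which encodes the iron hormone hepcidin (chr7:27882251-27882310), was at 1.66, 4.46 and 5.05 on the high-fat and at 5.95, 6.66 and 7.31 on the low-fat arrays. Although the ranges were apart, as the naming rule required within each genotype, the decrease of 2.82 ± 0.45 (adjusted p = 0.00189) consisted of 3.97 in WT and 1.68 in Het. Adgrf1, an adhesion G protein-coupled receptor, fell by 3.10 ± 0.26 (adjusted p = 0.00029), by 3.18 in WT and 3.03 in Het. Spint2, an inhibitor of membrane serine proteases (chr7:26195957-26196016), had low-fat levels between -0.78 and -0.60 and high-fat levels between -2.45 and -1.56, and fell by 1.33 ± 0.11 (adjusted p = 0.00029). Further decreases at this end were those of the metabotropic glutamate receptor gene Grm8 (-2.41 ± 0.32), the splicing factor gene Srrm3 (-2.51 ± 0.39), the myosin heavy chain gene Myh2 (-2.46 ± 0.22) and Spry4, an inhibitor of receptor tyrosine kinase signalling (-2.31 ± 0.35). Rrp1b fell by 2.33 ± 0.26 on the probe used, while its 3 other probes differed by -0.12, -0.11 and 0.28 and none of the 3 was called, so that its transcripts do not have a single direction here.

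**Figure D2:**
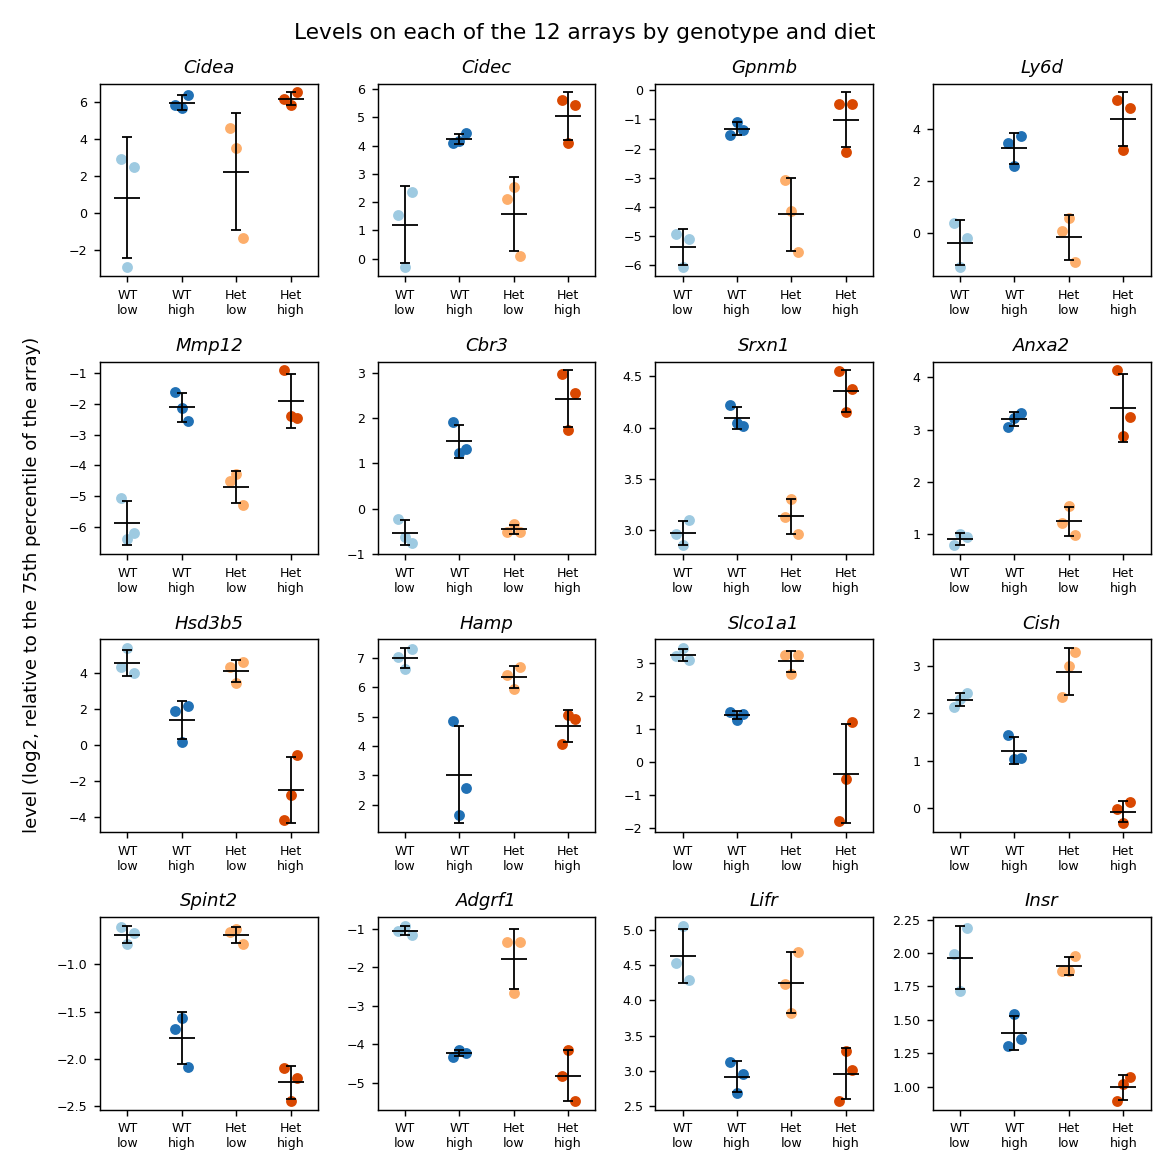
Level (log2 relative to the 75th percentile of the array) of 16 genes on each of the 12 arrays, in the order WT low fat, WT high fat, Het low fat and Het high fat. Points are mice, the long bar is the group mean and the whiskers are 1 SD with n = 3, and in each panel the high-fat points of a genotype lie wholly to one side of its low-fat points. For genes named as the largest increases or decreases the naming rule required this separation. It was found in 16.8% of all genes tested.

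Agreement between probes of 1 gene was checked on probes not used in the fit. The 1739 called genes with further probes had 2408 of them, of which 79.9% had the sign of the probe used, 933 were called in the same direction and 53 in the opposite one. For the 5790 further probes of genes not called, the share with equal sign was 60.7%. Of these probes 931 were called in the direction of the probe used and 385 in the opposite one. A gene given as not called may therefore have another probe that was called. Among the called genes described here by the naming rule, Thrb, Rrp1b, Fdft1, Tkt, Ppp1r3c, Masp1, Acta2, Hnf4a and Insr had at least 1 other probe that was not called.

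The 61 lists of pathway genes and cell markers are described by how many measured members were called higher (13.5% of all genes) or lower (16.6%) and by their median difference (-0.03 for all genes). The lists were chosen with earlier results of these data known. A share above that of all genes is therefore a description and not an independent result. The lists with the largest shares of higher calls among those of at least 15 genes were matrix proteases, lipid droplet proteins, collagens, targets of NRF2 and cell cycle genes. Male-biased liver genes and liver endothelial markers had the largest shares of lower calls in lists of that size.

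**Figure D3:**
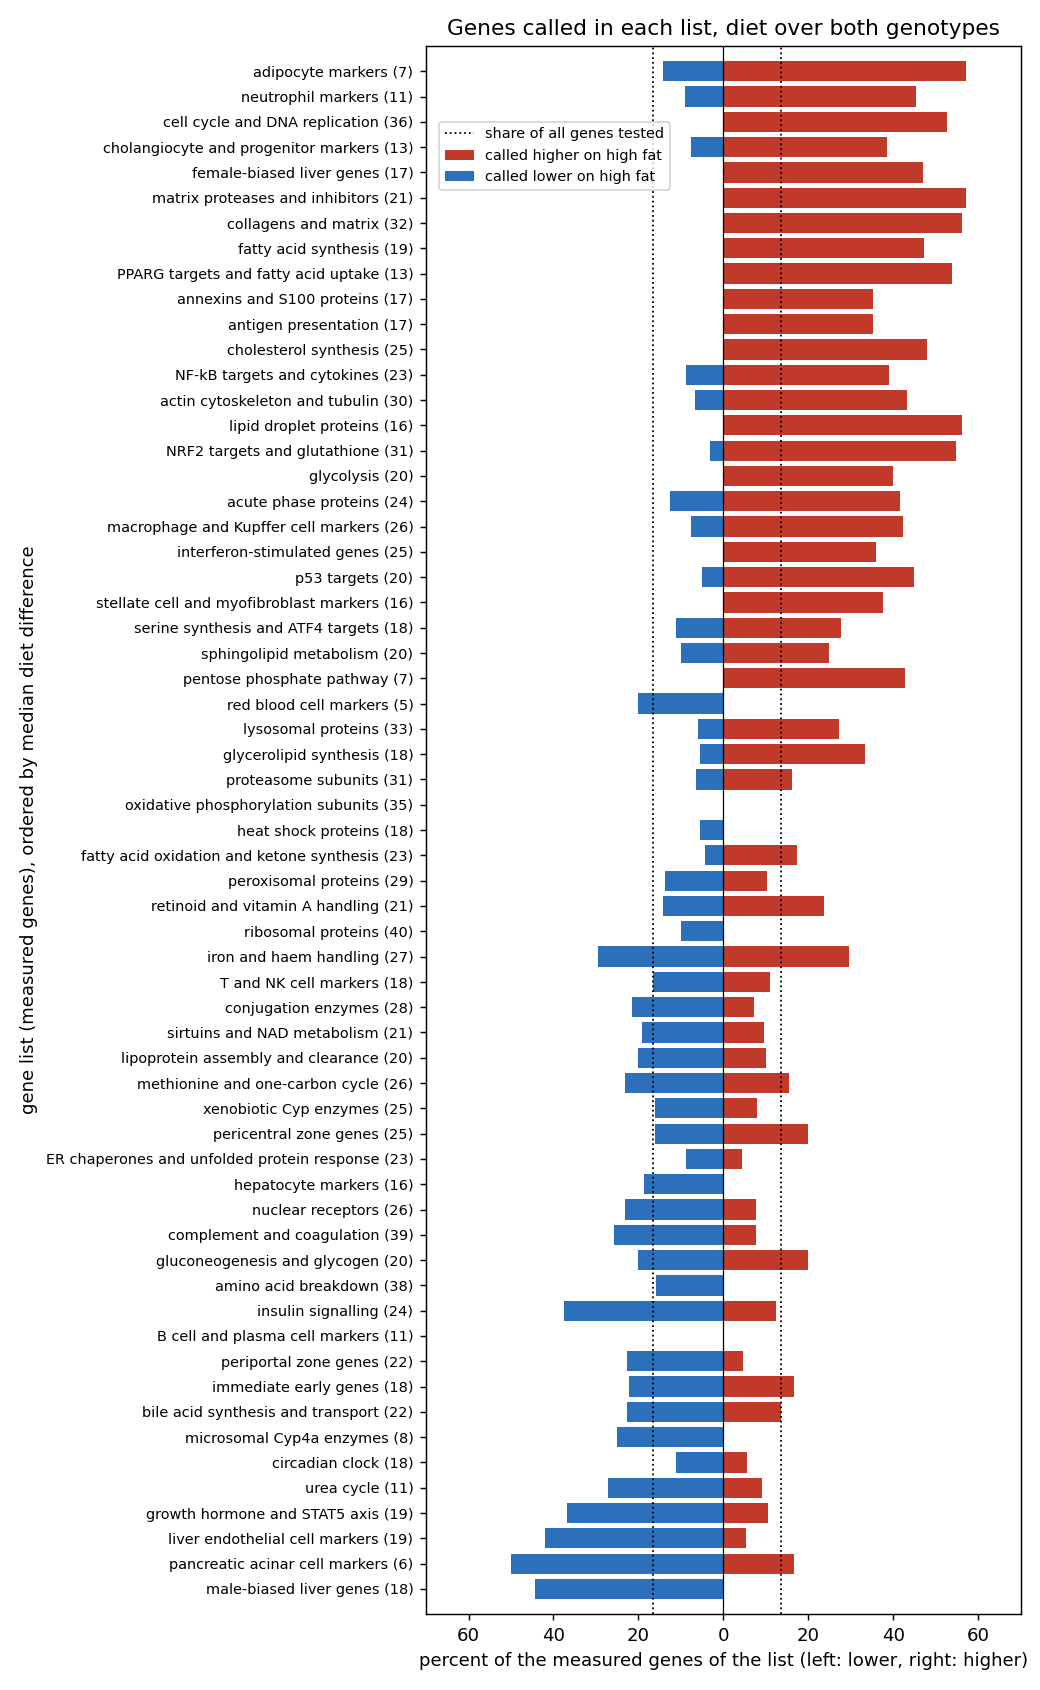
Percent of the measured genes of each of 61 lists called higher (right, red) or lower (left, blue) on the high-fat diet over both genotypes, ordered by the median difference of the list, with the number of measured genes in parentheses. Dotted lines mark the shares of all genes tested, 13.5% higher and 16.6% lower. The lists were chosen with earlier results of these data known.

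Lipid droplet genes were called higher over both genotypes more often than all genes. Of 16 measured lipid droplet proteins 9 were called higher and 0 lower, with a median difference of 0.36. Cidea and Cidec, which fuse lipid droplets into larger ones, had the largest differences. Cidea was at 5.67, 6.01 and 6.52 on the high-fat arrays but ranged from -2.96 through 2.70 to 4.59 on the low-fat arrays. It rose by 4.55 ± 1.14 (adjusted p = 0.014), and the wide low-fat spread left both single genotypes short of the threshold (adjusted p = 0.082 in WT and 0.117 in Het). Cidec (chr6:113585627-113585686) was at 4.09, 4.30 and 5.62 against -0.31, 1.83 and 2.52 and rose by 3.26 ± 0.52 (adjusted p = 0.00187), with 3.04 in WT and 3.47 in Het. The perilipin gene Plin4 rose by 2.35 ± 0.48 (adjusted p = 0.00554), and Hilpda, an inhibitor of triglyceride breakdown, by 0.84 ± 0.14 (adjusted p = 0.00244). The lipase gene Pnpla2 (-0.28) and its inhibitor G0s2 (0.24) were not called.

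Genes of fatty acid uptake and of PPARG, a nuclear receptor that drives fat storage, were also among those called higher. Of 13 measured, 7 were called higher and 0 lower (median 0.57). Pparg was at 2.39, 2.63 and 2.95 on the high-fat and at 1.10, 1.53 and 1.84 on the low-fat arrays, without overlap, and rose by 1.16 ± 0.14 (adjusted p = 0.00067), 1.20 in WT and 1.12 in Het. The fatty acid carrier gene Fabp4 rose by 1.71 ± 0.20 (adjusted p = 0.000558), the lipoprotein lipase gene Lpl by 1.08 ± 0.15 (adjusted p = 0.000993) and the fatty acid translocase gene Cd36 by 1.41 ± 0.26 (adjusted p = 0.00339). Aqp7, a glycerol channel, was well above background on 5 of 6 high-fat and 0 of 6 low-fat arrays with a bound of at least 2.87-fold on its rise (adjusted p = 0.00156). Fabp4, Cidec and Aqp7 are also markers of adipocytes. Of 7 measured adipocyte markers 4 were called higher and 1 lower (median 1.67). Their summed level was 157 to 334 on the high-fat and 222 to 276 on the low-fat arrays, and the part of fat tissue in these calls was not tested.

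Enzymes that assemble glycerolipids were higher at the monoacylglycerol and acyltransferase steps. Of 18 measured genes 6 were called higher and 1 lower (median 0.10). Mogat1, which makes diacylglycerol from monoacylglycerol, was at 1.28, 2.22 and 2.44 on the high-fat and at -1.18, 0.34 and 0.58 on the low-fat arrays. It rose by 2.09 ± 0.34 (adjusted p = 0.00201), and Mogat2, with the same activity, by 1.73 ± 0.28 (adjusted p = 0.002). Gpam, which adds the first acyl group to glycerol phosphate, rose by 1.30 ± 0.24 (adjusted p = 0.00344). Dgat1 (0.20) and Dgat2 (-0.08), which complete triglyceride, were not called.

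Fatty acid synthesis showed 9 of 19 measured genes higher and 0 lower (median 0.58). Acly, which supplies cytosolic acetyl-CoA, rose by 0.93 ± 0.21 (adjusted p = 0.00817), Scd2, a stearoyl-CoA desaturase, by 0.89 ± 0.20 (adjusted p = 0.00891) and the desaturase gene Fads1 by 0.54 ± 0.12 (adjusted p = 0.00735). Fasn and Acaca, at the core of the pathway, differed by 0.43 ± 0.22 and 0.43 ± 0.20 and were not called. For the regulators Srebf1 and Mlxipl the differences were -0.05 and -0.35, also not called.

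Cholesterol genes were higher at several steps of the pathway. Of 25 measured, 12 were called higher and 0 lower (median 0.45), and 8 to 11 were higher when single arrays were left out. Mvd, which forms isopentenyl diphosphate, was at 1.37, 2.04 and 2.28 on the high-fat and at 0.06, 0.67 and 1.05 on the low-fat arrays, with no overlap. It rose by 1.28 ± 0.24 (adjusted p = 0.00368), 1.35 in WT and 1.20 in Het. Fdft1, the squalene synthase gene, rose by 0.60 ± 0.11 (adjusted p = 0.00354). Idi1 (-0.21), Cyp51 (0.28) and the regulator Srebf2 (0.28) were not called.

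**Figure D4:**
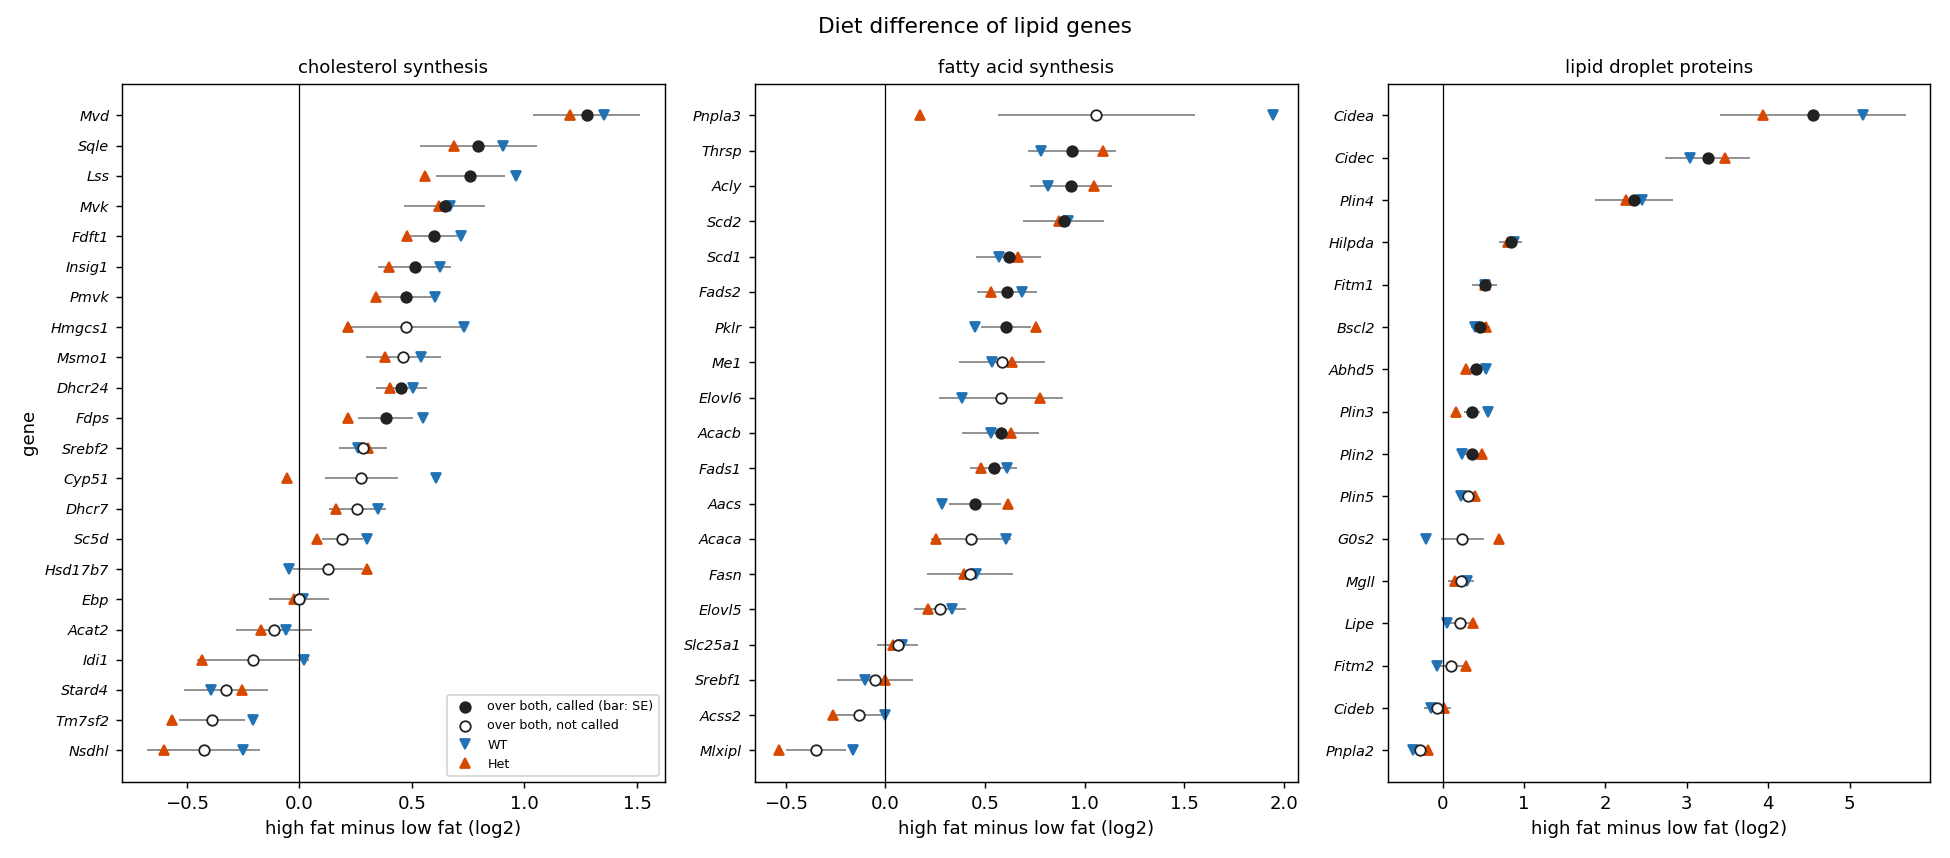
Diet difference (log2) of 22 genes of cholesterol synthesis and of each measured gene of fatty acid synthesis and lipid droplets, with the value over both genotypes (circle, filled where called, bar 1 SE), in WT (downward triangle) and in Het (upward triangle). The 9 called genes drawn in each list all lie to the right of 0, with Cidea, Cidec and Plin4 far beyond the others of their list.

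Promoters of members that moved together were searched in the 250 bases before the start site, on both strands, for the letters CCAAT, the box bound by NF-Y. It was present in 16 of the 17 cholesterol genes with a RefSeq promoter entry, 94.1%, against 37.5% of all 27025 promoters and 39.7% of those of genes tested. The box did not follow the calls within the list, being found in 5 of 5 called and 11 of 12 genes not called. The sterol element TCACNCCAC was found in 1 of the 17, and in 1.23% of all promoters. Mvd and Lss, an oxidosqualene cyclase gene that rose by 0.76 ± 0.15, are shown as members with the box. The sequences are those of RefSeq on GRCm38.p6, chr8:122443423-122443672 on the minus strand and chr10:76531355-76531604 on the plus strand, 5′ to 3′ along the gene, with the box in capitals.
Mvd: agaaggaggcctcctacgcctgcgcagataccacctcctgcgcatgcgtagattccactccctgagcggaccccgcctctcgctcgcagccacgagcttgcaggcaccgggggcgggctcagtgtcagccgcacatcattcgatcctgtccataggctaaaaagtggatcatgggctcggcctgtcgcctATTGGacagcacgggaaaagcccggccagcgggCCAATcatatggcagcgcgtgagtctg
Lss: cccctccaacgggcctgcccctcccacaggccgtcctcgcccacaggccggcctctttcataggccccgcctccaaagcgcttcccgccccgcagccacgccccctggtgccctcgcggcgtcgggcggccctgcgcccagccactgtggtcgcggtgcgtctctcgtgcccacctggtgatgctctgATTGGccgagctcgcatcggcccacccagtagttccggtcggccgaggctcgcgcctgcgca
The boxes of Mvd start 60 and 27 bases before the start site and that of Lss 62 bases before it. A match is only a stretch of letters and does not show that a factor bound there.

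Fatty acid oxidation, by contrast with synthesis, had few calls, 4 higher and 1 lower of 23 measured genes (median 0.06). The 4 became 1 or 2 without WT high-fat replicate 1 or 3, Het high-fat replicate 1, WT low-fat replicate 1 or Het low-fat replicate 1 or 3. Acads, a short-chain acyl-CoA dehydrogenase gene, rose by 0.62 ± 0.12 (adjusted p = 0.00531). Ppara (-0.13 ± 0.11) and Cpt1a (-0.05), the receptor and the entry enzyme of the pathway, were not called. None of 35 oxidative phosphorylation subunits was called by limma (median 0.07), and that of lowest p was Uqcrfs1 (-0.32 ± 0.12, adjusted p = 0.0556). Smpd3, a neutral sphingomyelinase that makes ceramide, rose by 2.99 ± 0.35 (adjusted p = 0.000616), from -3.11 to -0.87 on the low-fat to 0.75 to 1.79 on the high-fat arrays, while Sgms2, which uses ceramide to make sphingomyelin, fell by 0.80 ± 0.10 (adjusted p = 0.000731). Apoa4, an apolipoprotein that accompanies triglyceride export, rose by 2.12 ± 0.29 (adjusted p = 0.001), and Apom, an HDL protein, fell by 0.59 ± 0.09 (adjusted p = 0.00169).

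Genes of glycolysis and of the pentose phosphate pathway that were called were higher. Of 20 glycolytic genes 8 were called higher and 0 lower (median 0.35), which became 5 higher without WT high-fat replicate 3 or Het high-fat replicate 1. Hk2, a hexokinase scarce in normal liver, was at -0.49, 0.09 and 0.61 on the high-fat and at -1.58, -1.32 and -0.90 on the low-fat arrays and rose by 1.37 ± 0.21 (adjusted p = 0.00169). Pkm, the pyruvate kinase of other tissues, rose by 0.84 ± 0.11 (adjusted p = 0.000903), and the liver pyruvate kinase gene Pklr by 0.60 ± 0.13 (adjusted p = 0.00624). In the pentose phosphate pathway 3 of 7 genes were higher, among them Pgd (0.89 ± 0.15, adjusted p = 0.00235) and Tkt (0.72 ± 0.10, adjusted p = 0.00125). Ppp1r3c, a glycogen-targeting subunit of protein phosphatase, fell by 1.40 ± 0.26 (adjusted p = 0.00355).

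Sex-biased genes of the liver, which follow the male or female pattern of growth hormone release, were called in opposite directions in these male livers. Of 18 male-biased genes 8 were called lower and 0 higher (median -0.49). Slco1a1, an organic anion transporter (chr6:141960693-141960751), was at -1.78, 1.24 and 1.51 on the high-fat and at 2.67, 3.21 and 3.44 on the low-fat arrays. It fell by 2.61 ± 0.39 (adjusted p = 0.00142) and by 2.64 ± 0.44 on its other probe. Elovl3, a fatty acid elongase, fell by 1.25 ± 0.25 (adjusted p = 0.00489), C8b, a complement component, by 1.19 ± 0.16 (adjusted p = 0.000974), and the oxysterol hydroxylase gene Cyp7b1 by 1.34 ± 0.20 (adjusted p = 0.0015). The male-biased Cyp4a12a (-0.32 ± 0.22) and Mup3 (-0.10 ± 0.17) were not called.

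Of 17 female-biased genes 8 were called higher and 0 lower (median 0.65). Cyp2b9 was at 3.83, 5.12 and 5.75 on the high-fat and at 2.46, 3.04 and 3.81 on the low-fat arrays and rose by 1.89 ± 0.35 (adjusted p = 0.00361). Its close relative Cyp2b13 rose by 2.16 ± 0.38 (adjusted p = 0.00285), and Cyp3a16 by 1.01 ± 0.18 (adjusted p = 0.00286), though probes of the Cyp2b and Cyp3a families may share signal. Cyp2a4 (-0.03) and Cyp2c40 (-0.36), female-biased as well, were not called.

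In the growth hormone and STAT5 axis 7 of 19 genes were called lower and 2 higher (median -0.29). Cish, a direct STAT5 target, was at -0.32, 0.58 and 1.54 on the high-fat and at 2.13, 2.38 and 3.30 on the low-fat arrays, with no overlap, and fell by 2.01 ± 0.17 (adjusted p = 0.00029). Lifr, the receptor of leukaemia inhibitory factor, fell by 1.50 ± 0.19 (adjusted p = 0.000731), and its 4 other probes fell by 0.61 to 0.89. Igfbp2, which binds insulin-like growth factors, fell by 1.41 ± 0.24 (adjusted p = 0.00228), the epidermal growth factor receptor gene Egfr by 1.11 ± 0.23 (adjusted p = 0.00622) and Onecut1, a liver transcription factor gene, by 0.80 ± 0.20 (adjusted p = 0.0139). Stat5a rose by 0.68 ± 0.14 (adjusted p = 0.00509), whereas Stat5b (-0.24), Ghr (-0.22) and Igf1 (-0.29) were not called.

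**Figure D5:**
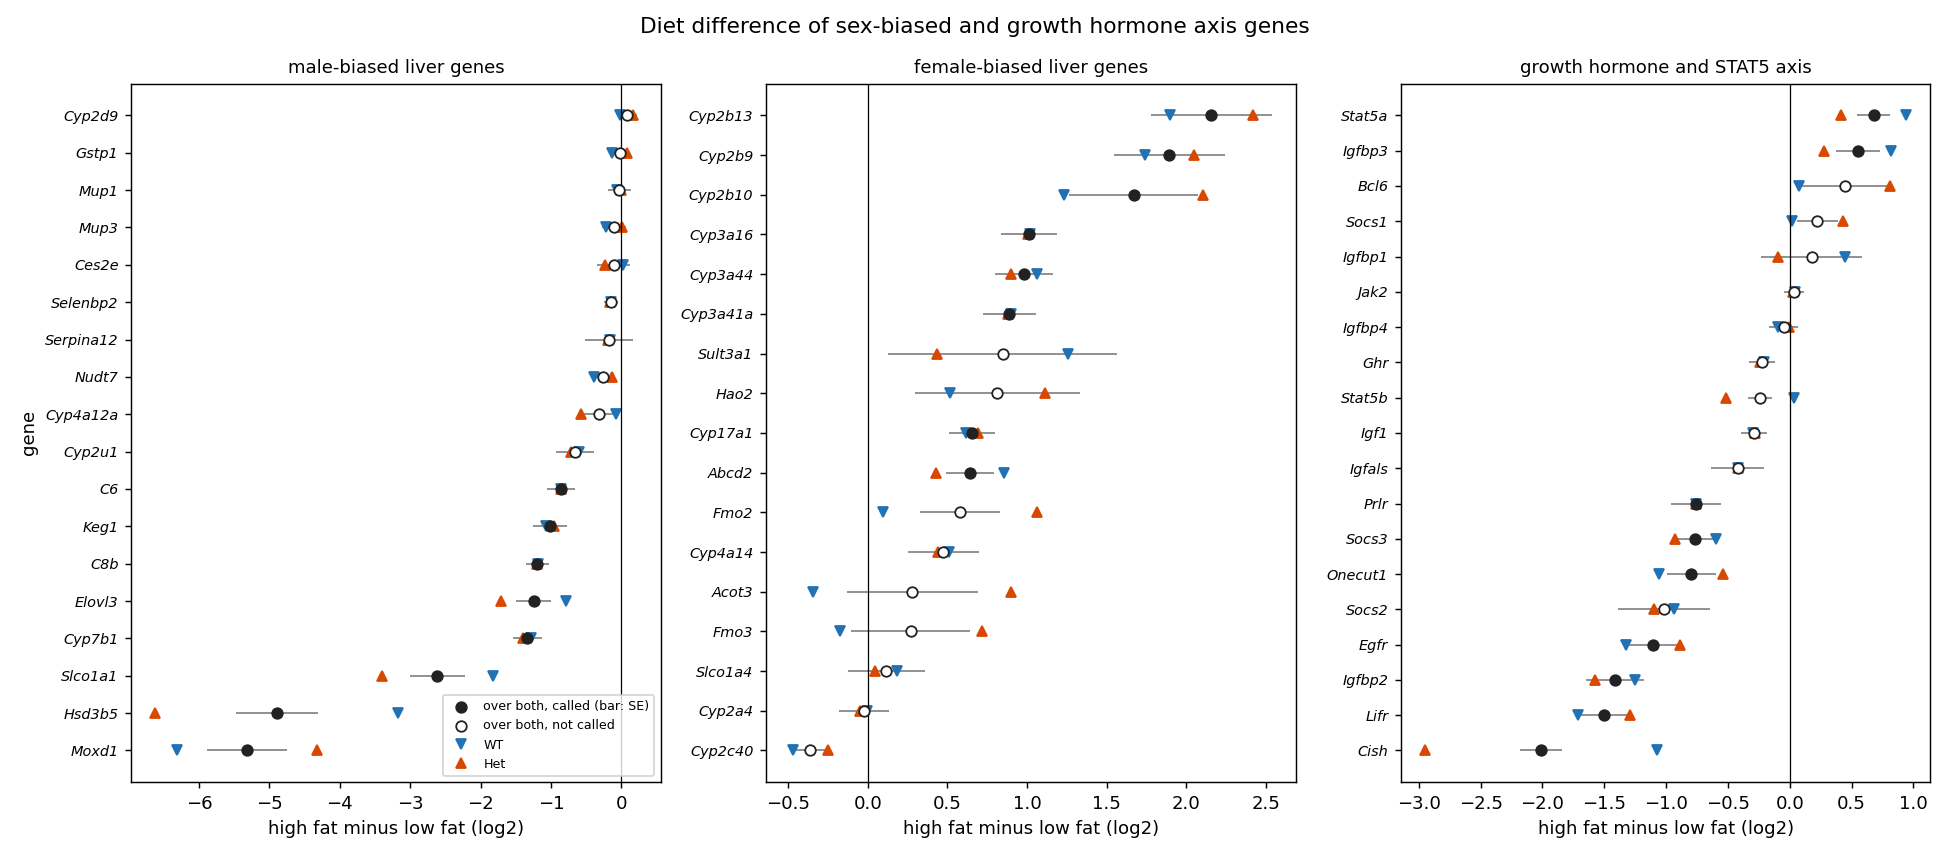
Diet difference (log2) of each measured male-biased, female-biased and growth hormone axis gene, with the value over both genotypes (circle, filled where called, bar 1 SE), in WT (downward triangle) and in Het (upward triangle). The 8 called male-biased genes lie left of 0 and the 8 called female-biased genes right of 0, with WT and Het on the same side in each.

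Bile acid genes had 3 higher and 5 lower calls of 22 (median -0.23), shares near those of all genes. The 5 became 3 with scaling to the median. Cyp7a1, the rate-limiting enzyme of bile acid synthesis, differed by -0.07 and was not called. Basolateral exporters rose, Abcc3 by 0.70 ± 0.14 (adjusted p = 0.00525) and the subunit gene Slc51b by 1.39 ± 0.34 (adjusted p = 0.0131). Of 25 cytochromes of drug metabolism 2 were called higher and 4 lower (median -0.08), shares no larger than those of all genes. The 2 higher were Cyp3a11 and Cyp2b10, and the 4 lower were Cyp2c54, Cyp2c39, Cyp2c37 and Cyp2c70, whose probes may share signal within the family. Cyp3a11 rose by 1.24 ± 0.17 (adjusted p = 0.00105), while Cyp2c54 fell by 1.51 ± 0.21 (adjusted p = 0.000993) and Cyp2c70, which hydroxylates bile acids, by 1.03 ± 0.15 (adjusted p = 0.00121). Sult1e1, the oestrogen sulfotransferase gene, was at -1.26 to -0.68 on the high-fat and at -3.32 to -1.50 on the low-fat arrays and rose by 1.58 ± 0.28 (adjusted p = 0.00296). Ugt2b1, a glucuronosyltransferase of a family with near-identical members, fell by 1.06 ± 0.12 (adjusted p = 0.000616).

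Genes of nitrogen metabolism were called in both directions. Of 11 urea cycle genes 1 was called higher and 3 lower (median -0.25), of 26 genes of the methionine and one-carbon cycle 4 higher and 6 lower (median -0.07), and of 18 genes of serine synthesis and ATF4 targets 5 higher and 2 lower (median 0.27). The 3 lower urea cycle genes became 1 to 5 under other scalings, background correction or trend removal. With scaling to the median the calls of Slc25a13 and Otc were lost (limma adjusted p = 0.0621 and 0.0612). Cps1, the entry enzyme of the urea cycle, was at 5.84, 5.91 and 6.15 on the high-fat and at 6.58, 7.05 and 7.17 on the low-fat arrays, and fell by 1.03 ± 0.11 (adjusted p = 0.000504), by 1.12 in WT and 0.94 in Het. Of 38 genes of amino acid breakdown 6 were called lower and 0 higher (median -0.13), a share of lower calls near that of all genes, and 10 were lower without Het high-fat replicate 2. Dbt, of the branched-chain keto acid dehydrogenase, fell by 0.95 ± 0.11 (adjusted p = 0.00053). Mthfd1l, a mitochondrial folate enzyme, rose by 1.91 ± 0.26 (adjusted p = 0.000979), and Mthfd2, also mitochondrial, by 0.87. Psat1 of serine synthesis rose by 1.59 ± 0.33 (adjusted p = 0.00626).

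Iron genes were called in both directions, 8 higher and 8 lower of 27. The 8 higher became 5 without either WT low-fat replicate 1 or Het high-fat replicate 1, and the 8 lower became 5 with scaling to the median. Beside Hamp, Smad7 (-1.50 ± 0.18, adjusted p = 0.000616) and Id1 (-0.95 ± 0.21, adjusted p = 0.00897) fell, both targets of the BMP pathway, which also drives hepcidin. The part of that pathway in the fall of Hamp was not tested. Smad7 was at -0.57, -0.16 and 0.02 on the high-fat and at 0.84, 1.29 and 1.86 on the low-fat arrays. Lcn2, which binds iron carriers of bacteria, rose by 2.19 ± 0.41 (adjusted p = 0.00382), and the haem scavenger gene Hpx by 0.62 ± 0.09 (adjusted p = 0.00142).

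Detoxifying genes under NRF2, a transcription factor that answers oxidants and electrophiles, were higher in 17 of 31 cases and lower in 1 (median 0.36), with 13 to 17 higher when single arrays were left out. Srxn1, which repairs oxidised peroxiredoxins, was at 4.02, 4.18 and 4.55 on the high-fat and at 2.85, 3.03 and 3.30 on the low-fat arrays, rose by 1.18 ± 0.10 (adjusted p = 0.00029), and rose by 1.03 and 1.31 on its other probes. Cbr3, a carbonyl reductase (chr16:93751054-93751113), was at 1.23, 1.82 and 2.98 against -0.75, -0.51 and -0.22 and rose by 2.45 ± 0.21 (adjusted p = 0.00029). Nqo1, a quinone reductase, rose by 1.01 ± 0.19 (adjusted p = 0.00387), and the metallothionein gene Mt2 by 1.96 ± 0.40 (adjusted p = 0.00584). The 1 gene called lower was Gclm of glutathione synthesis (-0.54), a call that was lost under 9 of the 12 omissions of an array and with scaling to the median (adjusted p = 0.12). By contrast Gclc (-0.08) and Gsr (-0.28) were not called.

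The antioxidant sequence TGACTCA was found, on either strand, within 250 bases before the start in 5 of 27 promoters of this list, 18.5%, against 5.16% of all promoters and 4.40% of those of genes tested. It was present in 2 of 17 called genes and 3 of 10 genes not called. The shorter antioxidant element TGACNNNGC was found in 8 of the 27, 29.6%, against 11.5% of all promoters and 13.9% of those of genes tested. That element was present in 4 of 17 called genes and 4 of 10 not called. In all 7 motifs were searched, some of which are not given here. The promoter of Srxn1 holds TGACTCA 2 times, starting 102 and 45 bases before the start site. It is shown from RefSeq on GRCm38.p6, chr2:152105274-152105523 on the plus strand, 5′ to 3′ with the matches to TGACTCA in capitals.
Srxn1: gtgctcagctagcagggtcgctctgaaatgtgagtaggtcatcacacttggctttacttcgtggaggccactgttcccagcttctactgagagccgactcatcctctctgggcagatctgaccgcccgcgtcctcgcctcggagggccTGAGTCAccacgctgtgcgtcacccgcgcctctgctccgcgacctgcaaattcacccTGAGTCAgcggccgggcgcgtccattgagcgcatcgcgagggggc
The same letters are also those of the element bound by AP-1, so the match names no factor.

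Stress genes outside NRF2 moved in part. Among 20 targets of p53 9 were called higher and 1 lower (median 0.29), the 9 becoming 5 without WT high-fat replicate 1 or 3. The cyclin-dependent kinase inhibitor gene Cdkn1a was at -1.40, -0.53 and 0.12 against -2.76, -2.13 and -1.52 and rose by 1.58 ± 0.31 (adjusted p = 0.00505), and the pro-apoptotic Bax by 0.60 ± 0.08 (adjusted p = 0.000916). Nupr1, a stress-induced chromatin protein, rose by 1.78 ± 0.18 (adjusted p = 0.000379), and Atf3, a stress transcription factor, by 1.75 ± 0.22 (adjusted p = 0.000717). Chaperones of the endoplasmic reticulum had 1 higher and 2 lower calls of 23 (median -0.10), and heat shock proteins 0 higher and 1 lower of 18 (median 0.07), both below the shares of all genes.

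Inflammatory genes were called higher more often than lower. Of 24 acute phase genes 10 were called higher and 3 lower (median 0.35). Saa1 was at 5.93, 6.70 and 7.32 on the high-fat and at 4.13, 4.98 and 5.49 on the low-fat arrays and rose by 1.79 ± 0.25 (adjusted p = 0.00105), and the near-identical Saa2 by 1.72 ± 0.25 (adjusted p = 0.00116). Orm3, an orosomucoid, rose by 1.27 ± 0.19 (adjusted p = 0.0013), whereas the fibrinogen gene Fga (-0.54) was among those called lower. Of 23 NF-kB targets and cytokines 9 were higher and 2 lower (median 0.39). Nfkb2 was at -0.53, -0.19 and 0.06 against -1.43, -1.21 and -1.06 and rose by 0.97 ± 0.09 (adjusted p = 0.000314), 0.90 in WT and 1.04 in Het. Ccl2, which recruits monocytes, rose by 1.53 ± 0.23 (adjusted p = 0.00142), and Tlr2, a receptor for bacterial lipoproteins, by 1.11 ± 0.16 (adjusted p = 0.00134). Il1b (-0.09) and Tnf (0.61) were not called. Among the 2 called lower was the cytokine gene Il6 (-0.82). Its call was lost under most omissions of an array and with normexp background correction (-0.07, limma adjusted p = 0.701).

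Complement and coagulation genes went the other way, with 10 of 39 called lower and 3 higher (median -0.12). Beside C8b, these included Masp1, a protease of the lectin pathway (-0.54 ± 0.09, adjusted p = 0.00227), and the inhibitor gene Serping1 (-0.53 ± 0.11, adjusted p = 0.00604). Interferon-stimulated genes were higher in 9 of 25 cases and lower in none (median 0.32), with 4 or 5 higher without WT low-fat replicate 3, WT high-fat replicate 1, Het low-fat replicate 1 or Het high-fat replicate 1 or 2. Ifi27l2a rose by 0.78 ± 0.14 (adjusted p = 0.00343).

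Genes of the extracellular matrix were higher in 18 of 32 cases and lower in none (median 0.64). Col1a1, the main fibrillar collagen chain, was at 1.28, 1.80 and 2.84 on the high-fat and at -1.01, -0.05 and 0.74 on the low-fat arrays. It rose by 2.07 ± 0.34 (adjusted p = 0.0021), by 2.07 in each genotype, and by 1.76 ± 0.47 on its other probe. Col5a2 rose by 1.27 ± 0.16 (adjusted p = 0.000721) and Col12a1, well above background on 3 of 6 low-fat arrays, by 1.45 ± 0.18 (adjusted p = 0.000717). Fibronectin (Fn1, 0.07) and decorin (Dcn, 0.25) were not called. Matrix proteases and their inhibitors were higher in 12 of 21 cases and lower in none (median 0.65), with the collagenase gene Mmp13 at 2.70 ± 0.39 (adjusted p = 0.00124), well above background on 3 of 6 low-fat arrays, and Timp1 not called at 0.01.

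Cytoskeletal genes were also called higher more often than lower. Of 30 actin and tubulin genes 13 were called higher and 2 lower (median 0.38), among them the capping protein gene Capg (1.16 ± 0.18, adjusted p = 0.0015) and the tubulin gene Tubb2a (1.38 ± 0.29, adjusted p = 0.00626). Of 17 annexins and S100 proteins 6 were higher and 0 lower (median 0.55). Anxa5, a phosphatidylserine-binding protein, was at 4.77, 5.09 and 5.77 against 3.44, 3.85 and 4.20 and rose by 1.35 ± 0.18 (adjusted p = 0.000853). S100a4, a calcium-binding protein of motile cells, rose by 1.37 ± 0.22 (adjusted p = 0.00186).

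Cell cycle genes were higher in 19 of 36 cases and lower in none (median 0.74, with 0.48 in WT and 1.01 in Het). The replication helicase gene Mcm6 was at 1.53, 1.61 and 2.29 on the high-fat and at 0.59, 0.66 and 0.96 on the low-fat arrays and rose by 0.99 ± 0.13 (adjusted p = 0.000916). Aurka, a mitotic kinase, rose by 1.12 ± 0.18 (adjusted p = 0.00182). Cdk1, which drives entry into mitosis, was at -3.43, -2.21 and -1.64 against -4.00, -3.79 and -3.29, with an overlap of the ranges, and rose by 1.34 ± 0.21 (adjusted p = 0.00188), by 0.81 in WT and 1.88 in Het. Ccnb1, its cyclin, rose by 2.04 ± 0.38 (adjusted p = 0.00378) and was well above background on 3 of 6 low-fat arrays. Pcna (0.38) and Ccnd1 (0.52) were not called.

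The CCAAT box was present within 250 bases before the start in 21 of the 27 cell cycle promoters with an entry, 77.8%, against 37.5% of all promoters. It was found in 12 of 16 called genes and 9 of 11 not called. Cdk1 is shown because its promoter holds 3 such boxes, starting 208, 80 and 48 bases before the start site, from RefSeq on GRCm38.p6, chr10:69352913-69353162 on the minus strand, 5′ to 3′ with the boxes in capitals.
Cdk1: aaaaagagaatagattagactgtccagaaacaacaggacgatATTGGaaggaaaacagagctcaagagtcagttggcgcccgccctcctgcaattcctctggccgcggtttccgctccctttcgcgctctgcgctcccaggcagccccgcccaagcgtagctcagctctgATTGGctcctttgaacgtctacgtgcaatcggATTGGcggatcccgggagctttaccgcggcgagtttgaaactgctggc
Over all genes called at least 2-fold higher the share with a box was 33.2%, and over those at least 2-fold lower 42.6%.

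Markers of other liver cell types are given as measured facts, and in whole liver fewer cells of a type and less RNA per cell cannot be told apart. Of 26 macrophage and Kupffer cell markers 11 were called higher and 2 lower (median 0.32). Their summed level was 212 to 313 on the high-fat and 147 to 254 on the low-fat arrays. Trem2, a lipid receptor of recruited macrophages, was at 0.71, 1.20 and 1.86 against -1.54, -0.92 and 0.42 and rose by 2.01 ± 0.29 (adjusted p = 0.00125), and the dendritic and macrophage integrin gene Itgax rose by 1.65 ± 0.28 (adjusted p = 0.00235). Timd4, a marker of resident Kupffer cells, fell by 1.72 ± 0.44 (adjusted p = 0.0152). Clec4f, another resident marker, differed by 0.03 ± 0.19 and was not called.

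Stellate cell and myofibroblast markers were higher in 6 of 16 cases and lower in none (median 0.28), with summed levels of 92.4 to 132 on the high-fat and 79.0 to 96.7 on the low-fat arrays. Besides collagen genes these held Pdgfrb, a growth factor receptor of stellate cells, which rose by 0.80 ± 0.12 (adjusted p = 0.00165), and Acta2, smooth muscle actin, by 0.54 ± 0.13 (adjusted p = 0.0114). This list and that of the matrix both hold collagen genes, so their counts overlap in part. The part of stellate cells in the collagen result was not tested. Liver endothelial markers were lower in 8 of 19 cases and higher in 1 (median -0.30), with summed levels of 54.6 to 64.3 against 64.6 to 74.6, ranges that did not overlap. Wnt2, a ligand released by central vein endothelium, was at -0.07, 0.57 and 0.77 against 1.17, 1.30 and 1.56 and fell by 0.84 ± 0.13 (adjusted p = 0.00179). Rspo3, a partner of Wnt signals, fell by 0.99 ± 0.22 (adjusted p = 0.00858), and the 1 gene called higher was Lyve1, a hyaluronan receptor (0.98 ± 0.23, adjusted p = 0.0104).

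Neutrophil markers were higher in 5 of 11 cases and lower in 1 (median 1.09), at summed levels of 2.72 to 13.1 on the high-fat and 1.60 to 4.30 on the low-fat arrays. The 5 became 2 or 3 without WT low-fat replicate 1 or 3, Het low-fat replicate 1 or 3, or Het high-fat replicate 1 or 3, and the part of neutrophils in the rise of Lcn2, which is on this list too, was not tested. Cholangiocyte and progenitor markers were higher in 5 of 13 cases and lower in 1 (median 0.66), the 5 becoming 3 without either WT low-fat replicate 3 or WT high-fat replicate 2. Spp1, osteopontin, was at 3.61, 4.48 and 6.06 against 2.52, 2.72 and 3.10 and rose by 1.86 ± 0.33 (adjusted p = 0.0029), and is also a macrophage marker. Aqp1, a water channel of bile ducts and vessels, fell by 0.91 ± 0.10 (adjusted p = 0.000489). Of 18 T and NK cell markers 2 were called higher and 3 lower (median 0.03, with -0.40 in WT and 0.44 in Het), shares near those of all genes. None of 11 B cell and plasma cell markers was called by limma, with 1 at an unadjusted p under 0.05, and their differences ran from -0.48 to 0.44 (median -0.17).

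Markers of hepatocytes differed less, with 3 of 16 called lower and 0 higher (median -0.10), a share of lower calls near that of all genes. The transthyretin gene Ttr fell by 0.68 ± 0.16 (adjusted p = 0.0114), while albumin (Alb, 0.45 ± 0.18, adjusted p = 0.0847) was not called. Hnf4a, a master regulator of hepatocyte genes, fell by 0.62 ± 0.12 on the probe used (adjusted p = 0.00459), and its other probes differed by -0.02 and -0.20 and were not called. Lysosomal genes were higher in 9 of 33 cases and lower in 2 (median 0.14), among them Hexa, which breaks down gangliosides (0.98 ± 0.10, adjusted p = 0.000456). Of 40 ribosomal protein genes 0 were higher and 4 lower (median 0.04), with 0 lower after scaling to the median. In the insulin pathway 9 of 24 genes were called lower and 3 higher (median -0.13), and the 9 became 4 or 5 without WT low-fat replicate 1 or 3, WT high-fat replicate 1 or 3, Het low-fat replicate 1, or Het high-fat replicate 1 or 2, and 4 with scaling to the median. Its receptor gene Insr was at 0.89, 1.19 and 1.54 against 1.72, 1.92 and 2.19 and fell by 0.73 ± 0.10 on the probe used (adjusted p = 0.000831), while its other probe differed by 0.21 ± 0.22 and was not called.

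Sirt1 itself was compared between the diets on both of its probes. The probe used differed by -0.30 ± 0.09 (adjusted p = 0.0351), a call that was lost, with adjusted p-values of 0.0553 to 0.0815, without WT high-fat replicate 1 or 2, any Het high-fat replicate, WT low-fat replicate 1 or Het low-fat replicate 1 or 3. It was also lost with scaling to the median (adjusted p = 0.144), normexp background correction (0.0817), no filter on dim probes (0.0823) and the replicate number as a block (0.0619). The other probe fell by 0.46 ± 0.09 (adjusted p = 0.00588), by 0.41 in WT and 0.50 in Het.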

How the data were processed

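Scanner tables of the 12 arrays were written by Agilent Feature Extraction 9.5, a tool the submitters' processing notes name. The authors' processed intensity is, per the file headers, a spot's brightness after background subtraction and detrending within its array, and flags of 0 or 1 mark spots well above background, saturated or outlying. The deposited table of the whole series holds the same intensity values, on a linear scale and not centred, so it was not used as an alternative. Probe coordinates are those of mm7, per the file headers.

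From these values, log2 of the processed intensity was taken and the log2 of each array's 75th percentile over non-control spots subtracted. Control and 1344 outlier-flagged spots were left out and saturated spots kept. A probe was kept if every array of some group showed it well above background and each group had values on at least 2 arrays, after 134 of 41174 probes with alternating G and T runs of 8 or more bases had been removed. Names came from RefSeq by accession (22951 probes), current symbol (6659) or older symbol (3109), and 8455 probes kept the name of the array design. The brightest of several probes stood for a gene, which left 16995 genes. In limma 3.58.1 (R 4.3.3), a mean per group was fitted with 8 residual and 2.81 prior degrees of freedom, and p-values adjusted by Benjamini-Hochberg over all genes. On simulated data with 200 changed genes the comparison over both genotypes recovered 50.7% of 1.5-fold and 92.5% of 2-fold changes and called 7 of 16795 unchanged genes. Genes were simulated independently, without differences between scan days. The 200 changed genes are far fewer than the 5108 called in the data. Since the adjustment of p-values depends on that share, the recovery need not hold for these data.

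The members and the 61 gene lists were chosen with earlier results of these data known. Named genes are the 12 largest increases and decreases without overlap in either genotype, the 5 of lowest p in each direction, up to 4 called members of lowest p per list (1 where none was called), Sirt1, the 5 of lowest interaction p, the 5 of lowest p called in neither genotype alone, and the 4 left-out probes with the largest differences. Other genes, such as Cd36, Nqo1, Mt2, Timd4 and members given as not called, were chosen after their values were seen. Some genes and 1 left-out probe that these rules name are not reported here. Alternatives were other scalings and background corrections, filters on dim probes, the mean of all probes, the treatment of runs, an additive model, slide and replicate blocks, and leaving out each array. Equal replicate numbers do not pair mice, since deviations of the high-fat and low-fat arrays of 1 number correlated between -0.36 and 0.09.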

Additional observations from a re-analysis of the deposited data

Results flagged for a closer look

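Levels of the named genes were examined for single mice that lay apart from the other 5 of their diet, by the gap to the nearest other mouse relative to the range of the 6. Of 465 groups examined 21 held such a mouse, and chance gives about 1 in 20. Values are log2 levels of that mouse, each followed by the median of its diet. Het low-fat replicate 2 stood apart in Adgrf1 (-2.68 against -1.25), Lpl (0.84 against 0.46), Cps1 (6.58 against 7.05), Cyp2c70 (5.88 against 6.37) and Ugt2b1 (3.62 against 4.04). Het high-fat replicate 1 stood apart in Anxa2 (4.14 against 3.23), Cyp7b1 (3.74 against 4.59), Mcm6 (2.29 against 1.61), Rxra (5.75 against 6.22), Psmd8 (4.22 against 3.66) and Ttr (4.34 against 4.82). WT low-fat replicate 1 stood apart in Fads1 (3.76 against 4.34), Ptprcap (-0.66 against -1.21) and Slamf7 (-4.97 against -5.82). WT low-fat replicate 3 stood apart in Bax (0.88 against 1.16). WT low-fat replicate 2 stood apart in Trp53inp1 (2.81 against 2.66) and Ctrb1 (-0.81 against -1.90). Het high-fat replicate 3 stood apart in Bco1 (-0.24 against -0.69). Het high-fat replicate 2 stood apart in Rxrg (1.92 against 1.63). WT high-fat replicate 2 stood apart in Psmb5 (4.16 against 4.50). WT high-fat replicate 1 stood apart in Cel (-2.81 against -3.14).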

How the results depend on the processing

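The count of 5108 genes called over both genotypes stayed between 3742 and 5471 when single arrays were left out and between 3755 and 5332 under other scalings, background correction, filters and probe rules. With slide as a random block, whose estimated correlation was -0.18, it was 8668, with 3562 in WT (958 in the text), 5392 in Het (2673), 8480 with equal sign (5094) and 2383 called in both genotypes alone (680). Without a filter on dim probes the WT count was 142, the Het count 1145 and the shared count 97. With the replicate number as a block they were 528 in WT and 379 shared, and the count over both genotypes was 4358. Under that block 8 of the 232 called genes given by the naming rule, not all of which are described, lost their call. The labels do not say that these numbers pair the mice. Leaving out single arrays gave 181 to 1079 in WT, 844 to 2844 in Het, 3730 to 5452 with equal sign, 131 to 641 shared and 0 to 3 for the interaction, the 3 without WT high-fat replicate 3. Of these 232 genes 207 kept their call when any array was left out and 191 under every other setting but the block. The share of higher calls was 44.8%, 60.8% with scaling to the median and 51.5% to 53.3% with quantile normalization, normexp correction or removal of a trend in GC and brightness. Depth of signal limits the lower end: folds of genes near background on 1 diet are compressed or bounds. No setting separates diet from scan day.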
